A study of Mus musculus with 9 samples.

Results

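The miR-26 family was followed through 9 small RNA-seq libraries of mouse cells and tissue. The members are miR-26a-5p, miR-26b-5p and miR-26b-3p, which are 3 of the 414 named miRNA starts that could be counted in the deposited alignments. A member is the sum of all reads whose 5′ end lies at the start of that arm, and the start was found as the position at which the count scaled to 1000000 mapped reads (RPMM) equalled the value listed for that name by the study. The precursors Mir26a-1 and Mir26a-2 give the same mature miR-26a-5p, so their divided reads were summed. The 3p arms of these precursors, miR-26a-1-3p and miR-26a-2-3p, were counted as well at the starts given by RefSeq, which makes 5 arms in all.

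A miRNA is cut from a hairpin precursor as a duplex, of which one strand is usually loaded into an Argonaute protein and kept while its partner, the passenger strand, is degraded. The loaded miRNA pairs with target mRNAs mainly through its seed, the bases from position 2 to position 8. The miR-26 family is broadly expressed in mammalian tissues and lies within genes for small CTD phosphatases. It is known as a repressor of the histone methyltransferase Ezh2 and, in beta cells, as one of the miRNAs that maintain insulin gene expression.

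Library preparation kits were compared by sequencing the same kind of RNA after different adapter ligations. MIN6, a line of beta-like cells from a mouse insulinoma grown in high glucose medium, was sequenced in 3 libraries of the Illumina TruSeq kit (TS-GAIIx) and in 3 of the older Illumina v1.5 kit (v1.5-GAIIx). A further MIN6 library was made with the Bioo Scientific NEXTflex V2 kit (NF-HiSeq), whose adapters end in random bases and whose RNA, sequencing platform, facility and date differed from those of the other MIN6 libraries. Liver RNA of 1 young adult female C57BL/6J mouse, a saline-injected and fasted control animal, was made into a TruSeq library (TS-HiSeq-ML) and a NEXTflex library (NF-HiSeq-ML), so liver values describe a single animal. No genetic change or treatment is named for the MIN6 cells.

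The libraries held between 6923460 and 25638871 expected counts each. The beta cell miRNAs miR-375-3p, miR-7a-5p and miR-182-5p together reached 89343 to 332423 RPMM in MIN6 and 784 to 894 RPMM in liver. The hepatocyte miRNAs miR-122-5p and miR-192-5p together reached 377 to 1429 RPMM in MIN6 and 99510 to 538478 RPMM in liver, so the summed markers of each sample matched its label. Singly, miR-122-5p reached 128 RPMM in NF-HiSeq against at most 2.38 RPMM in the other MIN6 libraries, and miR-7a-5p reached 678 RPMM in NF-HiSeq-ML against 6.61 RPMM in TS-HiSeq-ML, and the part of these reads in the NEXTflex results was not tested. Blood cell miRNAs (miR-451 and miR-142-5p) summed to at most 5.26 RPMM in MIN6 and to 79.4 and 4002 RPMM in the liver libraries, and endothelial miRNAs (miR-126-3p and miR-126-5p) summed to 84.9 to 287 RPMM in MIN6 and to 2725 and 8967 RPMM in liver. Among these 9 markers, miR-142-5p was at 0 in NF-HiSeq and miR-451 in TS-GAIIx replicate 2. In a tissue, fewer cells of a type and less RNA per cell cannot be told apart. The NEXTflex libraries stood apart in that their reads fell on only 251879 (NF-HiSeq) and 179918 (NF-HiSeq-ML) distinct alignments, against 551421 to 2569547 in the Illumina libraries.

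The mature sequences are shown with the seed in capitals, because the members fall into groups by it.
miR-26a-5p: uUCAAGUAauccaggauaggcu
miR-26b-5p: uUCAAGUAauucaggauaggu
miR-26b-3p: cCUGUUCUccauuacuuggcuc
miR-26a-2-3p: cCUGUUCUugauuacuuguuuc
miR-26a-1-3p: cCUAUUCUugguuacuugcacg
All 5 were matched in RefSeq (build GRCm38.p6). Both 5p arms carried the seed UCAAGUA, which no other of the 1679 mature mouse miRNAs in that table had. The passenger arms miR-26b-3p and miR-26a-2-3p shared CUGUUCU, from which miR-26a-1-3p differed by 1 base. Counted from 1 at the 5′ end, the first 22 bases of miR-26a-5p and miR-26b-5p differed at 2 positions, C11U and C21U (miR-26a base first), so reads of 20 nt differed at C11U alone and the letters at their ends were the same.

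In mm9, the build of the alignments, miR-26b-5p and miR-26b-3p start at positions 74440898 and 74440934 of chromosome 1, and miR-26a-5p starts at 118940929 of chromosome 9 (Mir26a-1) and at 126432599 of chromosome 10 (Mir26a-2), all on the plus strand. In GRCm38 the Mir26b hairpin occupies chr1:74394310-74394394 within an intron of Ctdsp1. In the same build the Mir26a-1 hairpin lies at chr9:119031796-119031885 within an intron of Ctdspl, and the Mir26a-2 hairpin lies at chr10:126995530-126995613 within Ctdsp2, where 2 annotated exons overlap it. Each hairpin is on the strand of its host gene, and these genes encode the phosphatases named above.

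The level of miR-26a-5p differed between the kits. It reached 34163, 35370 and 35330 RPMM in the 3 TS-GAIIx libraries, 5692, 5834 and 6241 RPMM in the 3 v1.5-GAIIx libraries and 11168 RPMM in NF-HiSeq. In liver it reached 30682 RPMM with TruSeq and 7540 RPMM with NEXTflex. Both TruSeq groups were high, and every v1.5 and NEXTflex library lay below every TruSeq library.

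The level of miR-26b-5p moved less. The 3 TS-GAIIx libraries had 2704, 2820 and 2826 RPMM, the 3 v1.5-GAIIx libraries 2536, 2585 and 2659 RPMM, NF-HiSeq 6021 RPMM, and the TruSeq and NEXTflex liver libraries 3562 and 4638 RPMM. The TS-GAIIx and v1.5-GAIIx values did not overlap, but the gap between them was smaller than the spread of the 3 v1.5 or TruSeq values. NF-HiSeq was the highest of the 9 libraries for this miRNA and an intermediate one for miR-26a-5p.

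The passenger strand miR-26b-3p was near the limit of 100 RPMM that defines a highly expressed miRNA in TS-GAIIx, with 102.5, 98.4 and 98.9 RPMM, and fell well under it elsewhere. It reached 8.81, 8.30 and 7.32 RPMM in v1.5-GAIIx, 11.7 RPMM in NF-HiSeq, 19.2 RPMM in TS-HiSeq-ML and 22.2 RPMM in NF-HiSeq-ML. The last 6 libraries were all below the lowest TS-GAIIx value.

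The passenger strands of miR-26a were rare in every library. For miR-26a-1-3p, TS-GAIIx gave 2.71, 3.36 and 3.14 RPMM and v1.5-GAIIx gave 2.38, 2.52 and 1.93 RPMM, whereas NF-HiSeq gave 14.2 RPMM. For miR-26a-2-3p the TS-GAIIx values were 3.61, 4.53 and 4.48 RPMM, the v1.5-GAIIx values were 3.97, 4.27 and 3.56 RPMM and NF-HiSeq had 8.68 RPMM. In TS-HiSeq-ML these arms had 3 reads (0.182 RPMM, exact Poisson 95% interval 0.0375 to 0.532) and 34 reads (2.06 RPMM). In NF-HiSeq-ML both had 0 reads, which allows a level of up to 0.209 RPMM (3 reads). Intervals and this limit cover counting error only, since amplified reads without molecular identifiers are not independent molecules.

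**Figure D1:**
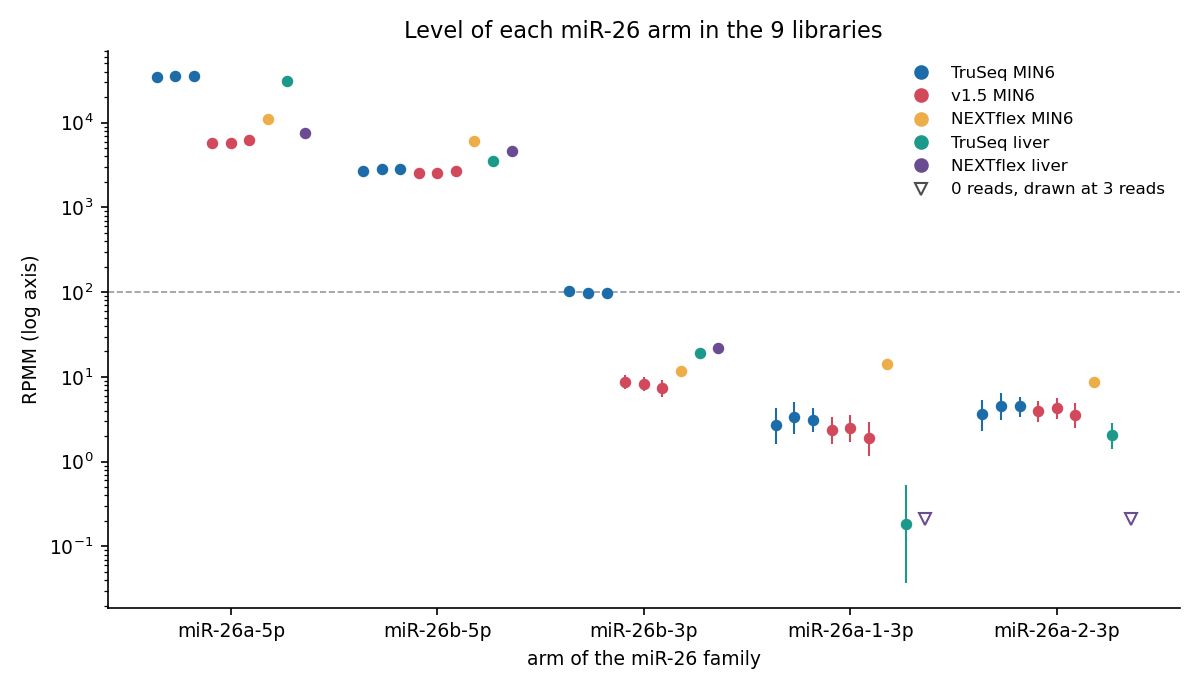
RPMM (log axis) of the 5 arms of the miR-26 family in each of the 9 libraries, with exact Poisson 95% intervals of the counts and a dashed line at 100 RPMM. TruSeq MIN6, v1.5 MIN6, NEXTflex MIN6, TruSeq liver and NEXTflex liver are TS-GAIIx, v1.5-GAIIx, NF-HiSeq, TS-HiSeq-ML and NF-HiSeq-ML, and open triangles mark 0 reads, drawn at the level of 3 reads. miR-26a-5p lies between 30682 and 35370 RPMM in the TruSeq libraries and between 5692 and 11168 RPMM in the others, while miR-26b-5p stays between 2536 and 6021 RPMM.

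These levels placed the members differently among the 295 reference arms counted. miR-26a-5p held rank 4 in each TS-GAIIx library, rank 29 in each v1.5-GAIIx library and rank 16 in NF-HiSeq, and ranks 2 and 14 in the TruSeq and NEXTflex liver libraries. miR-26b-5p held ranks 35 to 36, 51 to 52, 23, 28 and 21 in the same order, so it followed miR-26a-5p in every library. Ranks of miR-26b-3p ran from 144 in NF-HiSeq-ML to 271 in v1.5-GAIIx.

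For v1.5 against TruSeq in MIN6, the comparison with 3 libraries on each side, all entries of at least 100 RPMM in a MIN6 library and the 3p arms of miR-26a were fitted together with edgeR. Of the 5 arms, 3 were lower in v1.5-GAIIx and none was higher at an adjusted p under 0.05. One of the 3, miR-26b-3p, reached 100 RPMM only in TS-GAIIx replicate 1 and so is listed through the group where it is high, and its count and its differences from TS-GAIIx are a description for that reason. Among all 352 entries, 35.5% were lower (125) and 56.5% higher (199) by the same rule. The median entry was 0.70 higher in v1.5-GAIIx on the log2 scale, and none of the 5 arms reached that value.

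miR-26a-5p was 5.90-fold lower in v1.5-GAIIx, at 5922 ± 285 RPMM against 34954 ± 686 RPMM in TS-GAIIx (SD, n = 3 libraries each). Its log2 change was -2.56 with a standard error of 0.0493 (edgeR quasi-likelihood test, adjusted p = 4.60e-12). The difference was many times the spread between replicates, and all 3 v1.5 values lay below all TruSeq values.

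The passenger strand miR-26b-3p changed more, from 99.9 ± 2.24 to 8.14 ± 0.756 RPMM, a 12.3-fold drop. Its log2 change was -3.61 with a standard error of 0.0853 (edgeR, adjusted p = 1.64e-11), in a fit that it entered through TS-GAIIx. Over all starts of at least 10 counts, with no limit on RPMM, the log2 change was -3.62 (edgeR, adjusted p = 9.94e-06).

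miR-26b-5p was lower by far less, at 2593 ± 61.7 RPMM against 2784 ± 69.2 RPMM, with a log2 change of -0.10, a standard error of 0.0424 and an adjusted p of 0.0408 (edgeR). This call was lost when only alignments without a mismatch were counted (adjusted p = 0.0925), when all starts were fitted without a limit on the level (adjusted p = 0.0881), and when TruSeq replicate 2 or 3 or v1.5 replicate 1 or 2 was left out (adjusted p = 0.107 to 0.130 by edgeR). With other size factors the log2 change was -0.59 (TMM) or -0.72 (DESeq2).

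For the passenger strands of miR-26a the log2 changes were -0.43 for miR-26a-1-3p (adjusted p = 0.0634) and -0.11 for miR-26a-2-3p (adjusted p = 0.561), both by edgeR and both resting on 18 to 54 reads a library. miR-26a-1-3p passed with counts on named miRNAs as library size (adjusted p = 0.0154). With TMM factors both arms passed (adjusted p = 6.20e-04 and 0.00364), and likewise with DESeq2 (adjusted p = 0.0111 and 0.0343). Over the alternatives in all, the edgeR or DESeq2 adjusted p ran from 6.20e-04 to 0.179 for the first and from 0.00364 to 0.847 for the second.

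**Figure D2:**
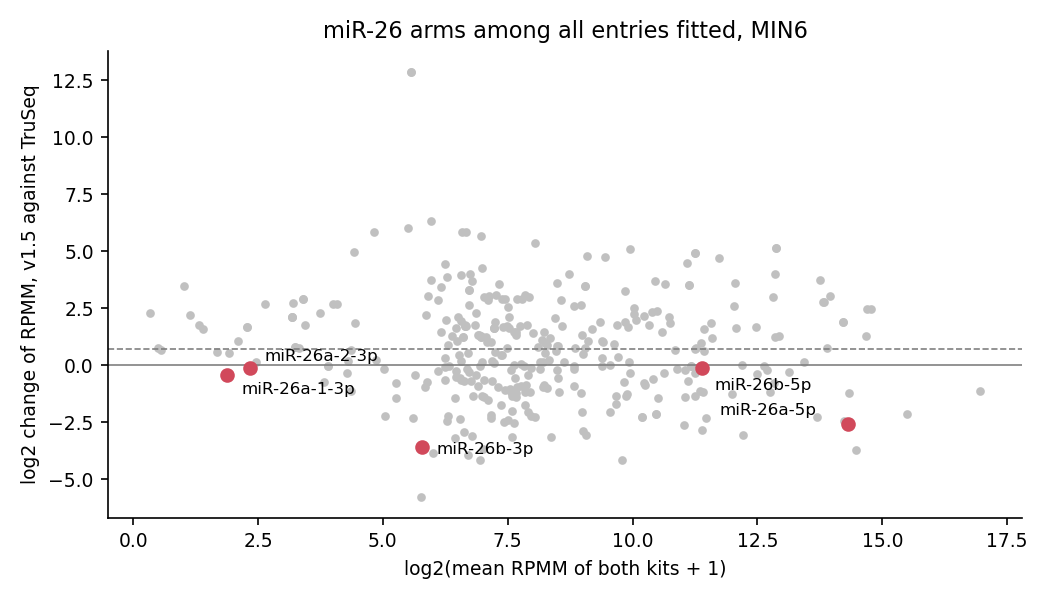
Log2 change of RPMM, v1.5-GAIIx against TS-GAIIx, by edgeR for the 352 entries fitted (gray), over the log2 mean RPMM of both kits, with the 5 miR-26 arms in red with their standard errors. The solid line is at 0 and the dashed line at the median of all entries, 0.70. miR-26a-5p and miR-26b-3p lie at -2.56 and -3.61, while miR-26b-5p and the 3p arms of miR-26a lie between -0.43 and -0.10.

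How unequally the paralogs were affected can be read within a library, where the library size cancels. For each read of miR-26b-5p there were 12.6, 12.5 and 12.5 reads of miR-26a-5p in the TS-GAIIx libraries, but only 2.24, 2.26 and 2.35 in the v1.5-GAIIx libraries. The single NF-HiSeq library had 1.85. In the same liver RNA the ratio was 8.61 with TruSeq and 1.63 with NEXTflex. The TruSeq libraries were thus all high and the other libraries all low, in both kinds of RNA. Between v1.5-GAIIx and TS-GAIIx the mean log2 ratio differed by -2.46, or 5.50-fold, against replicate SDs of 0.0353 and 0.00800. The exact permutation test gave p = 0.10 (two-sided), which is the smallest value that 3 against 3 libraries allow.

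The share of the reads with the common seed that came from miR-26b differed in the same way. The 5p arms together reached 36867 to 38191 RPMM in TS-GAIIx, 8228 to 8899 RPMM in v1.5-GAIIx, 17189 RPMM in NF-HiSeq, 34244 RPMM in TS-HiSeq-ML and 12178 RPMM in NF-HiSeq-ML. miR-26b-5p made up 7.33% to 7.41%, 29.9% to 30.8%, 35.0%, 10.4% and 38.1% of these reads.

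The passenger arm of miR-26b made up 3.65%, 3.37% and 3.38% of the reads of both miR-26b arms in TS-GAIIx. It was 0.346%, 0.320% and 0.274% in v1.5-GAIIx and 0.195% in NF-HiSeq (95% Wilson interval 0.174% to 0.218%). In liver it was 0.537% (0.481% to 0.599%) with TruSeq and 0.477% (0.428% to 0.532%) with NEXTflex, and these intervals overlap. The 3p to 5p ratio differed by -3.52 on the log2 scale between v1.5-GAIIx and TS-GAIIx, an 11.5-fold difference with an exact permutation p of 0.10 (two-sided, again the smallest possible). With TruSeq the share in liver was below that of every MIN6 library, while with NEXTflex it was above that of the MIN6 library.

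For miR-26a, the 3p arms together made up between 0.0185% and 0.0223% of the reads of all arms in TS-GAIIx and 0.0879% to 0.116% in v1.5-GAIIx, in which the 5p arm was lower. The share was 0.204% in NF-HiSeq and 0.00731% in TS-HiSeq-ML. Because the 3p arms differ in sequence, they tell the copies apart. There were 0.699 to 0.750 reads of miR-26a-1-3p for each read of miR-26a-2-3p in TS-GAIIx and 0.541 to 0.601 in v1.5-GAIIx, against 1.63 in NF-HiSeq and 0.0882 in TS-HiSeq-ML, where they rest on 3 and 34 reads.

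**Figure D3:**
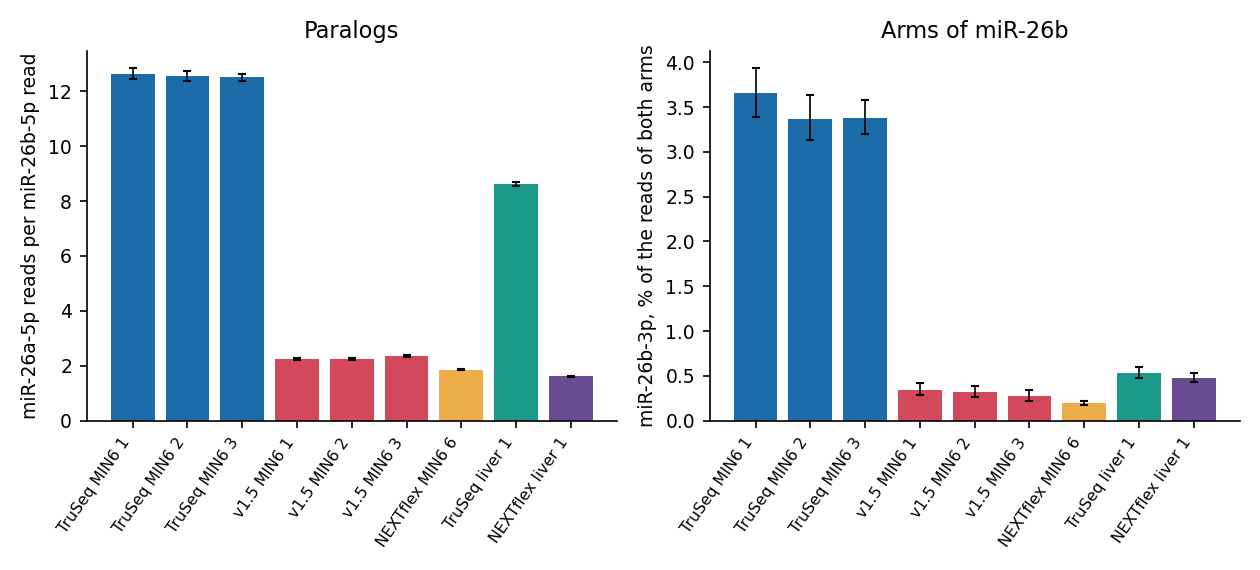
Left, reads of miR-26a-5p for each read of miR-26b-5p, and right, miR-26b-3p as a percentage of the reads of both miR-26b arms, in each of the 9 libraries (bars from 0, with 95% Wilson intervals of the counts). The paralog ratio is 12.5 to 12.6 in TS-GAIIx and 8.61 in TS-HiSeq-ML but 1.63 to 2.35 in the other libraries, and the 3p share is over 3% only in TS-GAIIx.

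Reads of an arm that start at the same base can still end at different bases, and the fall of miR-26a-5p in v1.5-GAIIx was not shared by its 20-nt reads. The forms on which this turns are shown with all bases after position 18 in capitals.
miR-26a-5p, 20 nt: uucaaguaauccaggauaGG
miR-26a-5p, 22 nt: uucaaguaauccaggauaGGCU
miR-26b-5p, 20 nt: uucaaguaauucaggauaGG
miR-26b-5p, 22 nt: uucaaguaauucaggauaGGUU
Reads of 22 nt were the commonest form of both 5p arms in all 9 libraries, although the mature miR-26b-5p of RefSeq has 21 nt. Each form named here by its length alone matched the genome at every base. An added base that equals the next genomic base cannot be told apart from a templated one.

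The 22-nt form of miR-26a-5p made up 87.9%, 87.2% and 87.8% of its reads in TS-GAIIx and 48.5%, 51.4% and 51.4% in v1.5-GAIIx. NF-HiSeq had 54.7%, TS-HiSeq-ML 77.6% and NF-HiSeq-ML 38.9%. The 20-nt form, which lacks the last C and U, had the opposite pattern, with 0.340%, 0.280% and 0.287% in TS-GAIIx, 25.1%, 25.6% and 25.7% in v1.5-GAIIx, 6.58% in NF-HiSeq, 0.394% in TS-HiSeq-ML and 7.42% in NF-HiSeq-ML. The TruSeq libraries of both kinds of RNA were all low, and every other library lay above all of them.

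For miR-26b-5p the same lengths behaved otherwise. Its 22-nt form made up 68.9% to 69.7% in TS-GAIIx and 67.7% to 71.0% in v1.5-GAIIx, which overlap, and its 20-nt form made up 7.74% to 8.59% in TS-GAIIx and 4.36% to 4.52% in v1.5-GAIIx, which do not. In NF-HiSeq, TS-HiSeq-ML and NF-HiSeq-ML the 20-nt form made up 1.62%, 1.82% and 1.56%. Thus in MIN6 the 20-nt reads of the paralogs, which end in the same bases, had their highest share in different kits. In TS-HiSeq-ML, also made with TruSeq, the share of miR-26b-5p was below that of every v1.5-GAIIx library.

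**Figure D4:**
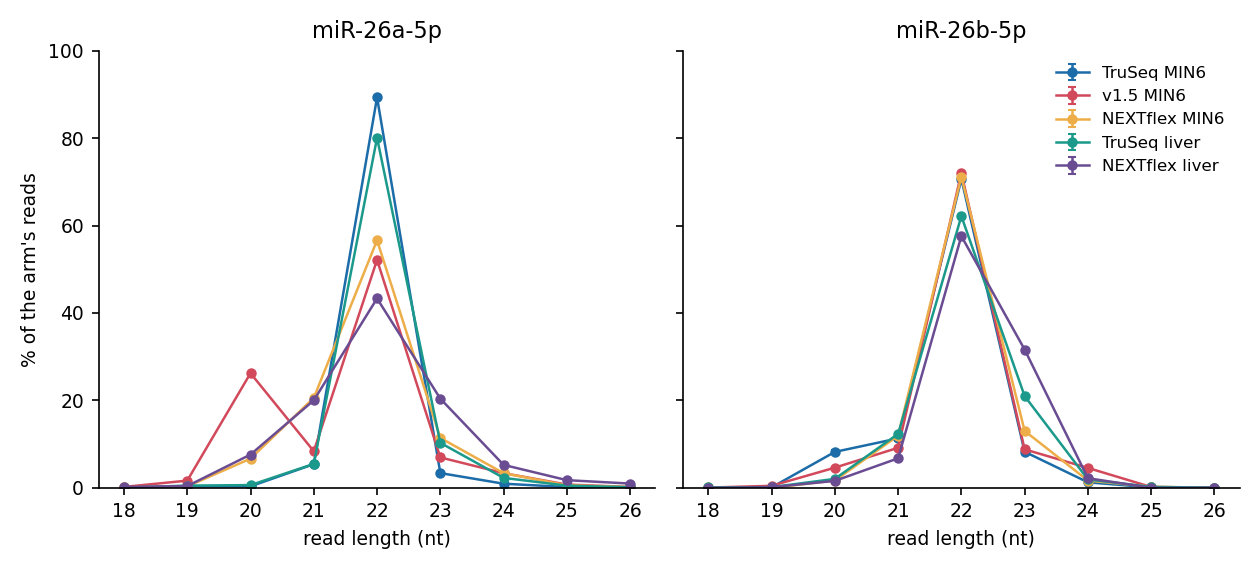
Share of the reads of miR-26a-5p (left) and miR-26b-5p (right) at each read length from 18 to 26 nt, mismatches included, as the mean of each group of libraries with bars from the lowest to the highest replicate. For miR-26a-5p the 20-nt reads stand out in v1.5 MIN6, where the form without a mismatch makes up 25.1% to 25.7%, while for miR-26b-5p that form stays between 1.56% and 8.59% in all libraries.

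When each length and 3′ form of each entry was fitted on its own with edgeR, 27.5% of the 4109 forms were lower and 51.1% higher in v1.5-GAIIx (adjusted p under 0.05), with a median log2 change of 0.82. With TMM factors 35.5% were lower and 42.0% higher, with a median of 0.24. This fit was added after the shares had been seen. Of 30 forms of miR-26a-5p, 16 were lower and 8 higher. Of 19 forms of miR-26b-5p, 5 were lower and 6 higher, but 8 were lower and 4 higher with TMM factors, whereas miR-26a-5p had 16 lower and 7 higher with them. All 3 forms of miR-26b-3p were lower, although the call of the 20-nt one was lost when a replicate was left out (adjusted p up to 0.112 by edgeR). The single form fitted of each miR-26a 3p arm was not called (adjusted p = 0.189 and 0.185 by edgeR for miR-26a-1-3p and miR-26a-2-3p) but was called lower with TMM factors (adjusted p = 0.0148 and 0.0129).

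The 20-nt form of miR-26a-5p rose 14.3-fold, from 105 ± 9.38 RPMM in TS-GAIIx to 1508 ± 88.6 RPMM in v1.5-GAIIx, with a log2 change of 3.84 and a standard error of 0.0896 (edgeR, adjusted p = 1.86e-07). Meanwhile the 22-nt form fell 10.2-fold, from 30635 ± 527 to 2990 ± 224 RPMM, a log2 change of -3.36 with a standard error of 0.0646 (edgeR, adjusted p = 9.53e-08). The 21-nt form, which lacks only the last U, fell 3.95-fold to 473 ± 26.9 RPMM (log2 change -1.98, adjusted p = 1.26e-06 by edgeR). The difference between the log2 changes of the 20-nt and 22-nt forms was 7.20, which had rank 4 among the 262 entries with both forms. These lengths were picked after the shares of miR-26a-5p had been seen, so the rank is a description. The median entry had -0.29 and the range was -8.16 to 8.38.

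The 20-nt form of miR-26b-5p fell 1.96-fold, from 226 ± 16.7 to 116 ± 4.01 RPMM (log2 change -0.97, adjusted p = 3.50e-05 by edgeR). For the 22-nt form the log2 change was -0.09 with an adjusted p of 0.151 (edgeR), at 1928 ± 55.9 and 1812 ± 86.4 RPMM, but it was called lower with TMM factors (-0.67, adjusted p = 7.91e-04 by edgeR). The forms that reach past position 22 without a mismatch rose, the 23-nt form from 12.0 ± 0.941 to 68.7 ± 1.95 RPMM and the 24-nt form from 13.6 ± 0.867 to 71.8 ± 4.49 RPMM (log2 changes 2.52 and 2.39, adjusted p = 1.23e-06 and 1.70e-06 by edgeR).

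**Figure D5:**
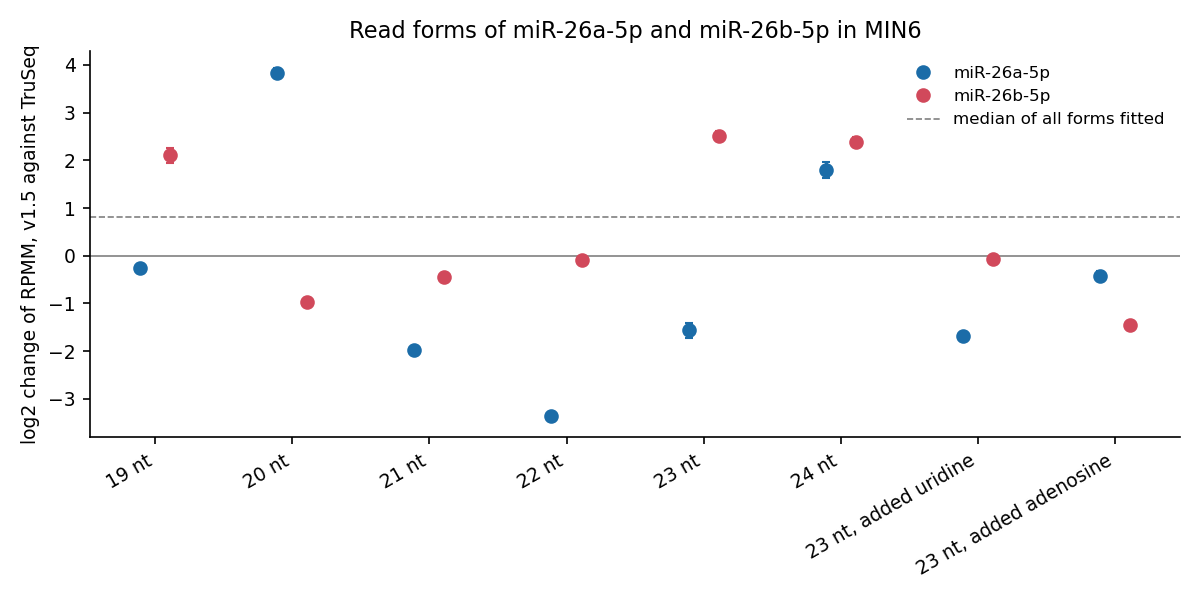
Log2 change of RPMM, v1.5-GAIIx against TS-GAIIx, with its standard error, of read forms of miR-26a-5p and miR-26b-5p without a mismatch (19 to 24 nt) or with an added uridine or adenosine at the 3′ end (23 nt). The dashed line is the median of all forms fitted, 0.82. The 20-nt and 22-nt forms of miR-26a-5p lie at 3.84 and -3.36, those of miR-26b-5p at -0.97 and -0.09.

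Mean read length followed from these forms. It was 21.98 to 21.99 nt in TS-GAIIx and 21.48 to 21.51 nt in v1.5-GAIIx for miR-26a-5p, a difference of -0.49 nt with a standard error of 0.00986 (limma, adjusted p = 3.19e-07). Reads of miR-26b-5p instead lengthened, from between 21.82 and 21.83 nt to between 21.98 and 21.99 nt, by 0.16 nt with a standard error of 0.00766 (limma, adjusted p = 8.93e-06). Reads of miR-26b-3p shortened by 0.29 nt with a standard error of 0.0533 (limma, adjusted p = 0.00287). Of the 312 entries with at least 50 reads in each of the 6 libraries, 37.8% had shorter and 44.6% longer reads in v1.5-GAIIx.

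Bases that do not match the genome at the 3′ end are a common mark of enzymatic tailing of miRNAs, most often by uridine or adenosine. A 3′ U was on 3.09%, 2.98% and 2.91% of the miR-26a-5p reads in TS-GAIIx and on 5.40%, 5.65% and 5.72% in v1.5-GAIIx. The log2 odds differed by 0.94 with a standard error of 0.0661 (limma, adjusted p = 1.21e-04). The uridine was nevertheless on fewer reads in v1.5-GAIIx, 307 to 357 RPMM against 1029 to 1056 RPMM. For miR-26b-5p the shares were 4.51% to 4.58% and 4.38% to 4.96%, with a log2 odds difference of 0.04 and an adjusted p of 0.669 (limma). Of all entries, 30.4% had higher odds of a 3′ U in v1.5-GAIIx.

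A 3′ A was on 0.537% to 0.576% of the miR-26a-5p reads in TS-GAIIx and on 1.54% to 1.67% in v1.5-GAIIx, with a log2 odds difference of 1.54 and a standard error of 0.0791 (limma, adjusted p = 4.51e-05). For miR-26b-5p it fell from between 3.23% and 3.37% to between 1.74% and 1.90%, a log2 odds difference of -0.90 with a standard error of 0.0782 (limma, adjusted p = 2.65e-04). The odds were higher in v1.5-GAIIx in 41.7% and lower in 20.5% of all entries. For miR-26b-3p, with as few as 76 reads, neither addition passed (adjusted p = 0.377 and 0.548 by limma), although a 3′ A was called higher with 2 reads added in place of 0.5 (log2 odds difference 1.49 against 0.54, adjusted p = 0.0218 by limma).

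The NEXTflex libraries, with a single library for each kind of RNA, allow no test. In MIN6, miR-26a-5p was 3.13-fold lower in NF-HiSeq than in the mean of TS-GAIIx, miR-26b-5p was 2.16-fold higher and miR-26b-3p, listed through its level in TS-GAIIx, was 8.52-fold lower. On the log2 scale with 1 RPMM added these are differences of -1.65, 1.11 and -2.99, of which that of miR-26b-5p was within 2-fold (0.84) when scaled by the median ratio of the entries. Past 2-fold by that measure were 35.9% of the 301 entries toward lower and 40.5% toward higher levels. Over the alternatives the log2 difference of miR-26b-3p ran from -3.90 to -2.65. Since the RNA, platform, facility and date changed with the kit, these factors cannot be told apart in MIN6.

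Compared with v1.5-GAIIx, NF-HiSeq was higher for miR-26a-5p by 0.92 and for miR-26b-5p by 1.21 on the log2 scale, of which only the second was past 2-fold. Scaling by the median ratio of the entries brought miR-26a-5p (1.61) and miR-26b-3p (1.12) past it as well and miR-26b-5p to 1.90. For miR-26b-3p the unscaled log2 difference was 0.48, and it turned to -0.41 when only alignments without a mismatch were counted. Of the 320 entries, 28.1% were more than 2-fold higher in NF-HiSeq.

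In liver, where both kits were used on the same RNA and the same platform, miR-26a-5p was 4.07-fold lower with NEXTflex. On the log2 scale with 1 RPMM added the differences were -2.02 for miR-26a-5p, 0.38 for miR-26b-5p and 0.20 for miR-26b-3p. Of the 3 listed members only miR-26a-5p was past 2-fold, as were 44.9% of the 176 entries toward lower levels. The lower level of miR-26a-5p and the higher level of miR-26b-5p with NEXTflex were thus found in MIN6 and in liver, but a lower miR-26b-3p was found in MIN6 alone. In liver the exact Poisson 95% intervals of miR-26b-3p overlapped, 17.2 to 21.5 RPMM with TruSeq and 19.9 to 24.8 RPMM with NEXTflex, and its difference was -0.02 over alignments without a mismatch.

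The NEXTflex reads of miR-26b-3p came in few forms. In NF-HiSeq its 300 reads had 9 forms, of which 51.3% carried a 3′ U and 45.7% were 21-nt reads without a mismatch. In NF-HiSeq-ML its 320 reads had 10 forms, of which 60.3% were 22-nt reads without a mismatch and 36.6% carried a 3′ A, whereas none carried a 3′ U (0 of 320 reads, which allows up to 0.938%). With TruSeq on the same liver RNA, 317 reads had 31 forms and 12.9% carried a 3′ U. For miR-26a-1-3p in NF-HiSeq, 98.3% of the 362 reads had the same form.

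Comparing liver with MIN6 within a kit, the 5p arms differed by less than 2-fold in level. With TruSeq the log2 difference of liver from the MIN6 mean was -0.19 for miR-26a-5p and 0.36 for miR-26b-5p, with the liver value outside the range of the 3 MIN6 libraries for both. With NEXTflex it was -0.57 and -0.38. miR-26b-3p was 5.19-fold lower in liver with TruSeq, a log2 difference of -2.32, but 0.87 higher on the same scale with NEXTflex. With TruSeq, 56.9% of the 288 entries were more than 2-fold lower in liver, and with NEXTflex 83.0% of the 264 entries were past 2-fold in either direction. Scaling by the median ratio of the entries turned the differences of miR-26a-5p around, to 1.69 with TruSeq and 0.92 with NEXTflex, and that of miR-26b-5p with NEXTflex to 1.11. With TruSeq it brought miR-26b-5p past 2-fold (2.24) and miR-26b-3p within it (-0.49), and with NEXTflex it brought miR-26b-3p past 2-fold (2.32). Unscaled, the median entry was at -2.02 with TruSeq and -3.14 with NEXTflex. Counting only alignments without a mismatch left a log2 difference of 0.04 for miR-26b-5p with TruSeq. Between the TruSeq libraries the platform changed with the sample, from GAIIx for MIN6 to HiSeq for liver. The study names TRIzol extraction for MIN6 RNA at the NIH, where TS-GAIIx was sequenced, and a Norgen kit for liver RNA. Platform, RNA extraction and tissue cannot be told apart in levels or in added bases.

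In both kits added bases were on a larger share of the 5p reads in liver. A 3′ U was on 8.85% of the miR-26a-5p reads and on 12.0% of the miR-26b-5p reads in TS-HiSeq-ML, above all TS-GAIIx values given earlier. With NEXTflex it went from 9.86% to 14.8% for miR-26a-5p and from 9.54% to 24.1% for miR-26b-5p. A 3′ A went from at most 0.576% to 1.69% with TruSeq and from 2.16% to 5.83% with NEXTflex for miR-26a-5p, and from at most 3.37% to 9.90% and from 2.79% to 5.84% for miR-26b-5p. The differences in log2 odds of a 3′ U were 1.65 and 1.52 with TruSeq and 0.67 and 1.59 with NEXTflex for the paralogs in that order. Over all entries of at least 50 reads the medians were 0.98 (185 entries) and 0.41 (171 entries), so the family was not alone in this. For a 3′ A the differences were 1.62 and 1.68 with TruSeq, where the median entry had 1.54, and 1.49 and 1.11 with NEXTflex, where it had 1.56, so the paralogs lay near or below the median. No test was possible with 1 liver library a kit.

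Some reads started 1 nt upstream of miR-26a-5p. They reached levels of 226, 227 and 240 RPMM with TruSeq in MIN6, 11.6, 13.4 and 14.3 RPMM with v1.5, 60.2 RPMM in NF-HiSeq, 347 RPMM in TS-HiSeq-ML and 25.8 RPMM in NF-HiSeq-ML. By edgeR the log2 change between v1.5-GAIIx and TS-GAIIx was -4.15 with a standard error of 0.0834. In MIN6 these reads reached 100 RPMM only in TS-GAIIx, so they entered the fit through the group where they are high. The difference is a description for that reason. In TS-GAIIx nearly all of these reads began with a C that does not match the genome, between 99.9% and 100% of those on Mir26a-1 and between 99.6% and 100% of those on Mir26a-2. The same C was on 99.3% to 100% and on 92.2% to 100% of them in v1.5-GAIIx. In TS-HiSeq-ML it was on 21.7% and 25.2%.

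The base before the arm is G on Mir26a-1 and A on Mir26a-2, but a matching base may also be added or miscalled. Of the reads that start 1 nt upstream on Mir26a-1, 29.2% began with U and 17.2% with an uncalled base in TS-HiSeq-ML. In NF-HiSeq 23.7% of them began with U. Reads with the matching base on Mir26a-1 and Mir26a-2 reached 20.4 and 7.90 RPMM in NF-HiSeq and 59.3 and 33.4 RPMM in TS-HiSeq-ML. In NF-HiSeq-ML they reached 0.0347 and 20.9 RPMM. In TS-GAIIx and v1.5-GAIIx they stayed at or below 0.503 RPMM. The level of reads that matched Mir26a-1 was the higher one in 2 of these libraries. In NF-HiSeq-ML it rested on 0.5 reads, the share of a read divided between alignments. There, 89.7% of the upstream reads on Mir26a-2 had the matching A. Which copy the reads with a matching base came from was not tested. The reference start of miR-26a-5p itself was divided nearly evenly between the copies, with 0.0423% to 1.97% more on Mir26a-2.

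Other miRNAs known to act on the same processes went in both directions. Of 3 miRNAs that maintain insulin gene expression beside miR-26, all passed the edgeR test between v1.5-GAIIx and TS-GAIIx, 1 of them lower and 2 higher, where 35.5% of all entries were lower and 56.5% higher. miR-182-5p, abundant in beta cells, had a log2 change of -1.23 (adjusted p = 1.92e-09), miR-148a-3p one of 0.75 (adjusted p = 9.90e-08) and miR-24-3p one of 5.16 (adjusted p = 3.15e-13, the same for each of its 2 copies, by edgeR). In RPMM, with its copies summed, miR-24-3p went from between 800 and 824 in TS-GAIIx to between 27761 and 31109 in v1.5-GAIIx.

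Of 2 miRNAs that also repress Ezh2, both were higher in v1.5-GAIIx, as were 56.5% of all entries. miR-101a-3p rose from 308 to 311 RPMM in TS-GAIIx to 1713 to 1817 RPMM in v1.5-GAIIx, and miR-101b-3p from 198 to 201 RPMM to 2502 to 2751 RPMM (log2 changes 2.51 and 3.70, adjusted p = 4.09e-12 and 1.11e-12 by edgeR). With TruSeq in MIN6 the Ezh2 list summed to 506 to 512 RPMM and with v1.5 to 4215 to 4568 RPMM, while it was 844, 6512 and 6187 RPMM in NF-HiSeq, TS-HiSeq-ML and NF-HiSeq-ML.

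The profiles over the 9 libraries of log2 levels, centered on their means, were used to find the miRNAs most like each paralog among 265 others. Nearest to miR-26a-5p by root mean square difference were miR-181a-5p (0.49), miR-125a-5p (0.57), miR-151-3p (0.58), miR-148a-5p (0.59) and miR-151-5p (0.63), against a median of 2.68 over all. Nearest to miR-26b-5p were miR-30d-5p (0.41), let-7d-3p (0.42), miR-532-5p (0.43), miR-30c-5p (0.51) and miR-146a-5p (0.57), against a median of 2.51. The paralogs themselves differed by 1.25, so that miR-26b-5p was number 18 in the list of miR-26a-5p and miR-26a-5p number 47 in that of miR-26b-5p.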

How the data were processed

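Small RNA of 7 MIN6 libraries and 2 libraries of the same mouse liver RNA was analysed. The deposited values are expected counts: the authors trimmed adapters with cutadapt (NEXTflex reads lost their first and last 4 bases), aligned to mm9 with Bowtie, per the labels, and divided reads among their alignments. Versions are not given in the sources used here. The counts were not rounded for shares but rounded for DESeq2 and edgeR. RPMM divides by the mapped reads that the study gives for each library, and the counts summed over a file exceeded these by 0.264% to 8.41%. TruSeq MIN6 libraries of the HiSeq platform were not analysed here.

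The v1.5 and TruSeq MIN6 libraries (3 each) were compared with edgeR 4.0.16 quasi-likelihood tests on counts, mapped reads as library sizes and Benjamini-Hochberg adjustment over all entries of at least 100 RPMM. Mean read length and log2 odds of 3′ additions (0.5 reads added) were compared with limma 3.58.1 over entries with at least 50 reads in each library. Ratios within a library had exact permutation tests. Alternatives used DESeq2 1.42.0, TMM, other filters and left-out replicates. Comparisons that involve NEXTflex or liver had 1 library on a side and no test, and those that share libraries are not independent of each other. The study calls the replicates biological, the labels name no separate cultures, and p-values measure the spread between these libraries, which may be technical. Statistics were tested on simulated data in R 4.3.3 and Python 3.11.15.

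All family arms were named, with the miRNAs of the insulin and Ezh2 lists and the 5 nearest profiles of each paralog. Members and lists were chosen with earlier results of these data known.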

Additional observations from a re-analysis of the deposited data

Results flagged for a closer look

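For the passenger strand miR-26b-3p, the differences of NEXTflex from TruSeq had unlike signs, -2.99 in MIN6 and 0.20 in liver, on the log2 scale with 1 RPMM added. In liver the exact Poisson 95% intervals of the kits overlap, which does not settle whether the levels differ. The liver difference was -0.02 over alignments without a mismatch. Likewise, liver against MIN6 gave -2.32 with TruSeq and 0.87 with NEXTflex for this arm. For miR-26a-2-3p, NEXTflex against TruSeq gave 0.89 in MIN6 and -1.61 in liver, where the NEXTflex library had 0 reads. For miR-26b-5p, liver against MIN6 gave 0.36 with TruSeq and -0.38 with NEXTflex. Each of these differences has a single library on at least one side, and whether the effects differ was not tested.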

How the results depend on the processing

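The log2 changes of miR-26a-5p and miR-26b-3p between v1.5 and TruSeq in MIN6 kept direction and call under every alternative run. They grew to -3.18 and -4.23 with DESeq2 size factors. With a replicate left out they lay between -2.60 and -2.53 and between -3.67 and -3.54. For miR-26b-3p the call is a description, since it entered the main fit through its level in TS-GAIIx. The change of miR-26b-5p kept its direction but lost its call over all starts with at least 10 counts (-0.10), over alignments with no mismatch (-0.11) and in 4 of the 6 fits without a replicate (over all 6, -0.12 to -0.0865 with edgeR adjusted p = 0.0253 to 0.130). The number of entries called was 324 of 352, 27998 of 54055 over all starts, 147 of 157 at 500 RPMM or more, and 312 to 321 without a replicate. The calls were 199 higher and 125 lower in v1.5, against 175 and 159 with TMM and 163 and 163 with DESeq2. Of the liver entries, 79 of 128 were past 2-fold between the kits with starts within 2 nt summed, against 119 of 176. The 3′ U difference of miR-26b-5p, not called, changed sign without v1.5 replicate 2 (-0.0105, with a range of -0.0105 to 0.0832 without a replicate). The causes were not tested.

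The replicate numbers were not taken as pairs, since same-numbered libraries deviated together with r = 0.0891, 0.198 and 0.183, although each library correlated best with its own number. With the replicate block, edgeR called 328 entries, the log2 changes were -2.56, -0.10 (adjusted p = 0.0456) and -3.61 for miR-26a-5p, miR-26b-5p and miR-26b-3p, and the ratio tests cannot go below p = 0.25 (exact). Few reads limit the 3p arms.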

Other observations

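Reads that start 3 nt inside miR-26a-5p, and would carry another seed, were counted on each precursor copy. They reached 37.0 to 60.0 RPMM in TS-GAIIx, 0.866 to 1.38 RPMM in v1.5-GAIIx, 2.13 RPMM in NF-HiSeq, 3.22 RPMM in TS-HiSeq-ML and 0 in NF-HiSeq-ML. Each copy had these same values, which are not summed over the copies as the levels of miR-26a-5p are.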
